A study of Mus musculus with 45 samples.

Results

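The probes described here stood alone on the array: in tumors labelled p53-/-, their signal ratio departed strongly from that of the probes next to them on the chromosome. The deviation of a probe was its log2 ratio minus the median log2 ratio of the 11 probes centred on it, and a probe was chosen when its deviation exceeded 2 in size, with the same sign, in at least 2 of the 6 p53-/- arrays. Of 40666 autosomal probes, 565 were chosen (1.39%), 356 with a higher and 209 with a lower ratio. All 6 p53-/- arrays took part in the choice, so their values below describe the probes and support nothing.

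The study hybridized DNA of 45 mammary tumors of female mice against reference DNA on 2-colour Agilent 44K arrays, 1 array per tumor. The p53-/- tumors carry the label p53fl/fl;MMTV-cre transplant (n = 6). Cre in them is driven by the MMTV promoter, which is active in mammary epithelium, and a transplanted tumor also holds cells of its host. The other 39 tumors were BRCA1fl/fl;p53+/-;MMTV-cre, called BRCA1-/-;p53+/- here (n = 5), C3(1)/SV40 T/t-antigens, called C3(1)-Tag (n = 5), MMTV-Her2/neu (n = 5), MMTV-H-Ras, called MMTV-HRas (n = 5), MMTV-c-Myc, called MMTV-Myc (n = 5), MMTV-PyMT (n = 9) and MMTV-Wnt1 (n = 5). In the C3(1) and MMTV models the promoter named drives the oncogene named. The labels describe the reference as pooled mouse spleen, with a further mention of normal mammary tissue, and the study's text as spleen DNA of the background strain. No array has a named strain or an age in the sources used here. The labels number no cultures, litters or hosts. The p-values and standard errors (SE) below therefore measure the spread between arrays within models, pooled over the 7 models tested. They do not measure the spread in the named model alone.

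In array comparative genomic hybridization the ratio of tumor to reference DNA at a probe reads the number of copies of the DNA around it. A gain or loss of a chromosome segment moves a run of neighbouring probes together. A single probe can also move alone, through a deletion or duplication shorter than the spacing of the probes, or because the tested and reference genomes differ in the bases under the probe, which changes how well the DNA binds it. Inbred mouse strains are known to differ in both ways, most of all in fast-evolving families such as the histocompatibility genes, the Ly49 receptors of natural killer cells and the olfactory and taste receptors.

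Ratios are given as Cy3 over Cy5 and read as tumor over reference, which is opposite to the dyes in the labels. The authors' own intervals ran the same way. Of 1789 deviations over the threshold, 1528 (85.4%) lay in a deposited interval of at most 5 probes with the same direction. Of these, 1337 lay in an interval of a single probe, and 0 of the 1789 lay in an interval of the opposite direction. The 85.4% was uneven: 93.1%, 95.2%, 96.9% and 96.6% in p53-/- tumors 1, 4, 5 and 6, but 60.4% and 50% in tumors 2 and 3. With the dyes as labelled, every sign below is turned.

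Several arrays stood apart before any member was considered. In the p53-/- group, tumors 2 and 3 had a single-probe standard deviation of 0.448 and 0.476, against 0.197 to 0.268 in the other 4. Arrays C3(1)-Tag 3 and MMTV-Her2/neu 2 had nearly the same profile of local medians (Pearson's r = 0.96 across 3697 blocks of the genome), as had C3(1)-Tag 4 and MMTV-Her2/neu 3 (r = 0.93), and whether either pair is the same DNA was not tested. By the same measure p53-/- tumor 2 was closest to MMTV-Her2/neu 1 (r = 0.73, against 0.72 with tumor 3), and C3(1)-Tag 5 to MMTV-Her2/neu 5 (r = 0.70). MMTV-Wnt1 1 had a deviation of -0.21 at the Wnt1 probe, against 1.08 to 1.37 in the other 4 arrays of that model. The p53-/- label could not be checked on Trp53, whose 2 probes (chromosome 11, 69396256 to 69396315 and 69399814 to 69399873, mm8) had log2 ratios between -0.64 and 0.58 in the 6 tumors. Whether these probes lie in the deleted part was not tested. In BRCA1-/-;p53+/- tumors, 1 of the 2 Brca1 probes (chromosome 11, 101340828 to 101340887) had a log2 ratio of -3.97 ± 1.40 (SD, n = 5). Median log2 ratios of chromosome X ran from -0.05 to 1.79 over the arrays.

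The 565 probes did not deviate in the same tumors. Counting those past the threshold in their own direction, tumors 2 and 3 had 225 and 226 higher and 0 lower members. In tumor 1 the counts were 156 higher and 121 lower, in tumor 4 they were 178 and 177, in tumor 5 they were 150 and 202, and in tumor 6 they were 173 and 181. Tumors 1, 4, 5 and 6 thus held all 209 lower members among them.

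Few combinations of tumors took up most members. Of the lower members, 97 deviated in exactly tumors 1, 4, 5 and 6, and 57 in exactly tumors 4, 5 and 6. Of the higher members, 149 deviated in exactly tumors 2 and 3, a further 95 in exactly tumors 1, 4, 5 and 6, another 27 in exactly tumors 2, 3, 4 and 6, and 22 in all 6. A pair of probes met the rule in both signs, higher in tumors 2 and 3 and lower in others, and were counted as lower; one of them was a probe of Chchd4, named here after its values were seen, a gene of mitochondrial protein import. Tumors 1, 2 and 6 shared a slide and tumors 3, 4 and 5 another, so that each of these combinations took tumors of both slides. The balance of signs rested on tumors 2 and 3: without either alone, 205 higher and 209 lower probes met the rule, and with the local background subtracted 271 and 67 did.

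**Figure D1:**
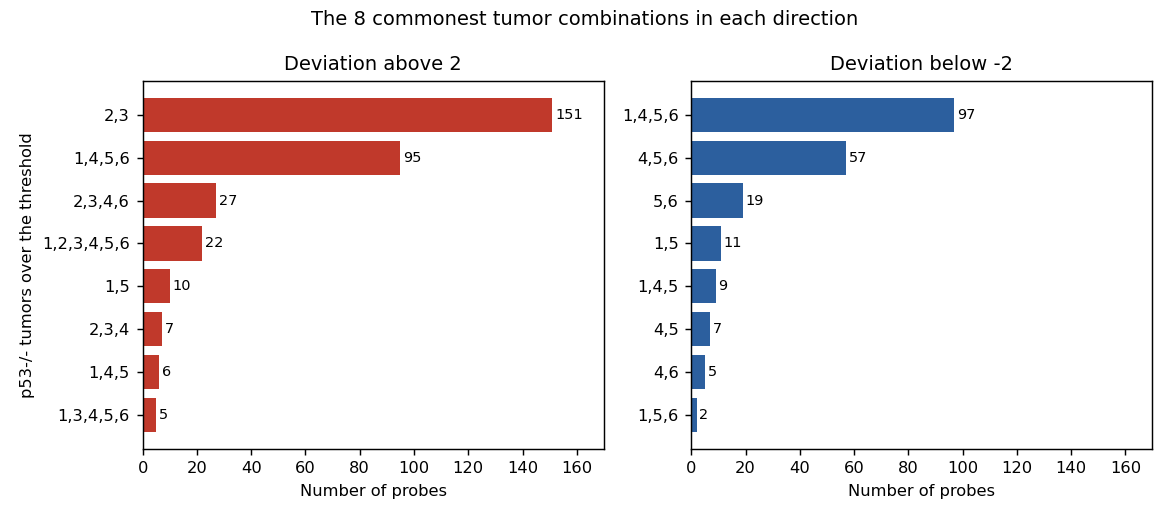
Number of probes for each combination of p53-/- tumors in which the deviation passed 2 in size, for higher and lower probes. The largest bars are tumors 2 and 3 among the higher probes, and tumors 1, 4, 5 and 6 in both directions.

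The number of members that a pair of tumors shared ran from 29 to 305 within a slide and from 28 to 319 between slides. Tumors 2 and 3 shared 219, tumors 4 and 6 shared 319 and tumors 1 and 5 shared 264. Across the 40101 autosomal probes that were not members, the deviations of these pairs had r = 0.91, 0.80 and 0.75, the highest of the 15 pairs, and the lowest was 0.21 in tumors 1 and 3, which shared 34. Between these ends the orders differed: tumors 2 and 4 shared 63 members and tumors 4 and 5 shared 305, and both pairs had r = 0.56. With arrays of other models the highest values were r = 0.73, between tumor 6 and MMTV-Her2/neu 5, and r = 0.72, between tumor 2 and MMTV-PyMT 4. All arrays share the probe design and the dye order, so these values are a description across probes.

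Most of the movement was in the Cy3 channel, the one read as tumor. A channel shift here is the log2 signal of a channel minus its median over the arrays of the other models. In 557 of 565 members (98.6%) the Cy3 shift was larger than the Cy5 shift, in 348 of 356 higher and in 209 of 209 lower members. For the 97 lower members of tumors 1, 4, 5 and 6, the median Cy3 shift was -4.32, 0.07, -0.01, -4.11, -4.22 and -3.99 in tumors 1 to 6, and the Cy5 median stayed within 0.04 of 0. In tumors 2 and 3 the Cy3 signal of these probes was thus at the level of the other models. For the 95 higher members of tumors 1, 4, 5 and 6, the median Cy3 shift was 3.92, -0.67, -1.01, 3.96, 3.94 and 4.04.

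The depth of signal differed between these sets. Among the 95 higher probes, Cy3 was not well above background at 43 and 30 in tumors 2 and 3 and at 0 in the other 4, and Cy5 was not well above background at 15 to 35 in each tumor. Among the 97 lower probes, Cy3 was not well above background at 34, 25, 31 and 28 in tumors 1, 4, 5 and 6. Where a channel is that dim, the size of a ratio is only a bound. At 4 members, among them Cd200r4, Ms4a4b and 1110028C15Rik, Cy5 was not well above background in all 6 arrays. The 149 higher probes of tumors 2 and 3 were brighter throughout and had Cy3 shifts of 2.17 and 2.20 there, between -0.20 and 0.47 in the other tumors.

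**Figure D2:**
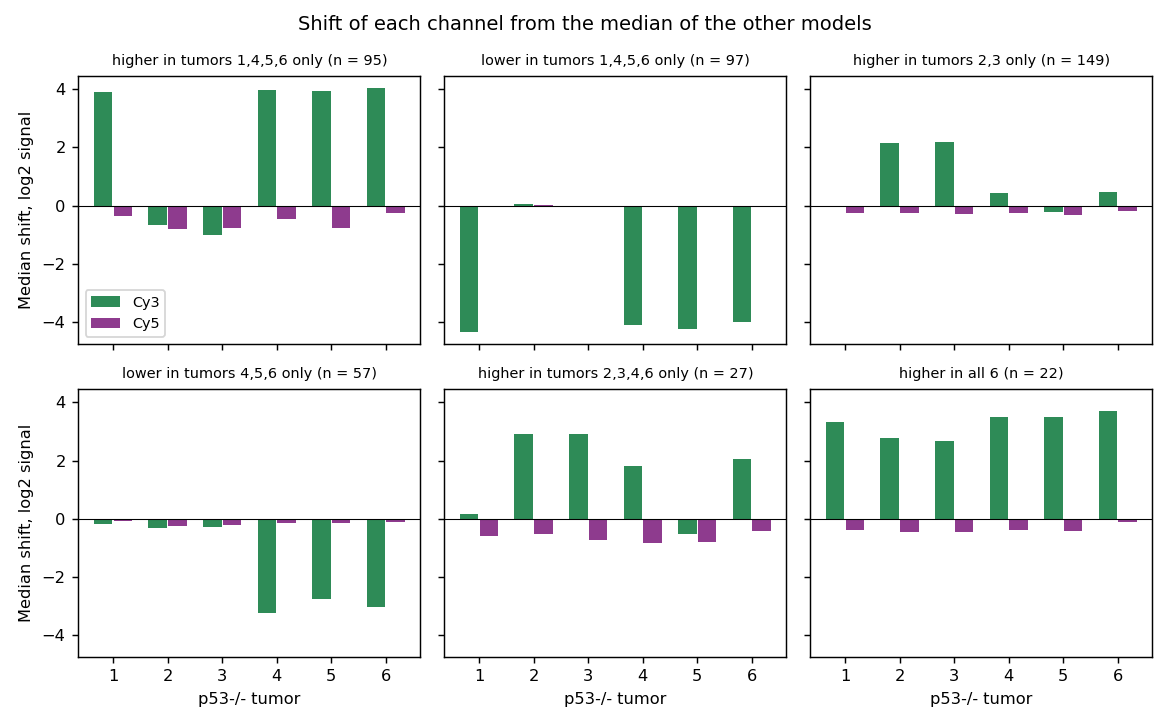
Median shift of the Cy3 and the Cy5 signal (log2, against the median of the other models) in each p53-/- tumor, for the main sets of members. The Cy3 medians reach -4.32 and 4.04, while those of Cy5 stay between -0.82 and 0.02.

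Sizes depended on the background correction. The processed signal subtracts more than the local background, and over the 565 members the median size of the mean deviation was 2.91 on it, 2.13 with the local background subtracted and 0.53 with the normexp model, which shrinks dim spots. The direction was kept in 560 and 511 members under these corrections. Applying the rule to them with its threshold of 2 unchanged gave 338 and 22 probes, of which 325 and 11 were among the 565.

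Among lower probes, the 12 with the largest mean deviation all deviated in exactly tumors 1, 4, 5 and 6. The probe of Sbds (chromosome 5, 130537418 to 130537477), a factor that releases the large ribosomal subunit for translation, had deviations of -6.72, -0.19, -0.13, -7.27, -7.07 and -7.47 in tumors 1 to 6. Its mean Cy3 signal was 139, 638, 754, 114, 122 and 139, over a local background of 49 to 59, and its Cy5 signal was 601, 672, 481, 558, 564 and 770. The signal in tumors 2 and 3 was therefore several times that in the others in Cy3, with no such split in Cy5. Cy3 was not well above background in 4 of the 6 tumors at this probe and in 1 to 4 at each of the 12, so the sizes are bounds and their order is not read. With the local background subtracted the same probe had -2.67, -0.17, 0, -3.64, -3.25 and -3.69. The nearest probes, AK142176 at 14269 bases and Tyw1 at 29042 bases, had mean deviations of -0.07 and 0.14 over the tumors in which Sbds deviated.

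The same split held for the other lower probes of this rank. The probe named 1500041B16Rik (chromosome 11, 16961538 to 16961597), matched to Cnrip1, whose product binds the cannabinoid receptor, had -5.62, -0.28, -0.24, -7.34, -7.34 and -6.76. Receptors of taste and smell were among them: Tas2r120, a bitter taste receptor, had -6.15, -0.05, -0.14, -5.94, -6.11 and -6.48, and Olfr1431, an odorant receptor, had -6.88, -0.19, -0.39, -6.37, -6.65 and -6.49. Another was named only by its position (chromosome 6, 131540489 to 131540548), with -7.31, -0.37, -0.29, -6.92, -6.98 and -7.47. Others were the transcripts AY423051, AK155119 and AK122497 and 3 probes named by position.

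The 12 leading higher probes were of 2 kinds: 8 deviated in all 6 tumors and 4 in tumors 1, 4, 5 and 6 alone. At 9 of them Cy5 was not well above background in 1 or more tumors, so their order is not read either. Itih2 (chromosome 2, 10012552 to 10012611), a heavy chain of the inter-alpha-trypsin inhibitors that bind hyaluronan, had 5.21, 3.83, 4.32, 5.70, 6.60 and 4.54. A second Itih2 probe, 15697 bases away, had a mean deviation of 0.12. The others of the first kind were BC020022, 5830403L16Rik (matched to Teddm2), BC014793, 9530077C05Rik, AK139667 and 2 probes named by position. BC020022 (chromosome 12, 60133446 to 60133505) had 5.38, 4.53, 4.36, 4.63, 4.59 and 4.63.

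Of the second kind was Sfmbt2 (chromosome 2, 10332293 to 10332352), a Polycomb group gene, with 6.25, 0.78, 0.94, 6.06, 6.11 and 6.47. Its Cy3 signal was 643, 135, 103, 488, 709 and 711, and its Cy5 signal lay between 76.4 and 96.0, so that the denominator of the ratio was close to background. The odorant receptor Olfr137 (chromosome 17, 37912688 to 37912746) had 6.35, -0.56, 0.97, 6.88, 6.60 and 6.88. Here too tumors 2 and 3 lay far from the other 4.

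**Figure D3:**
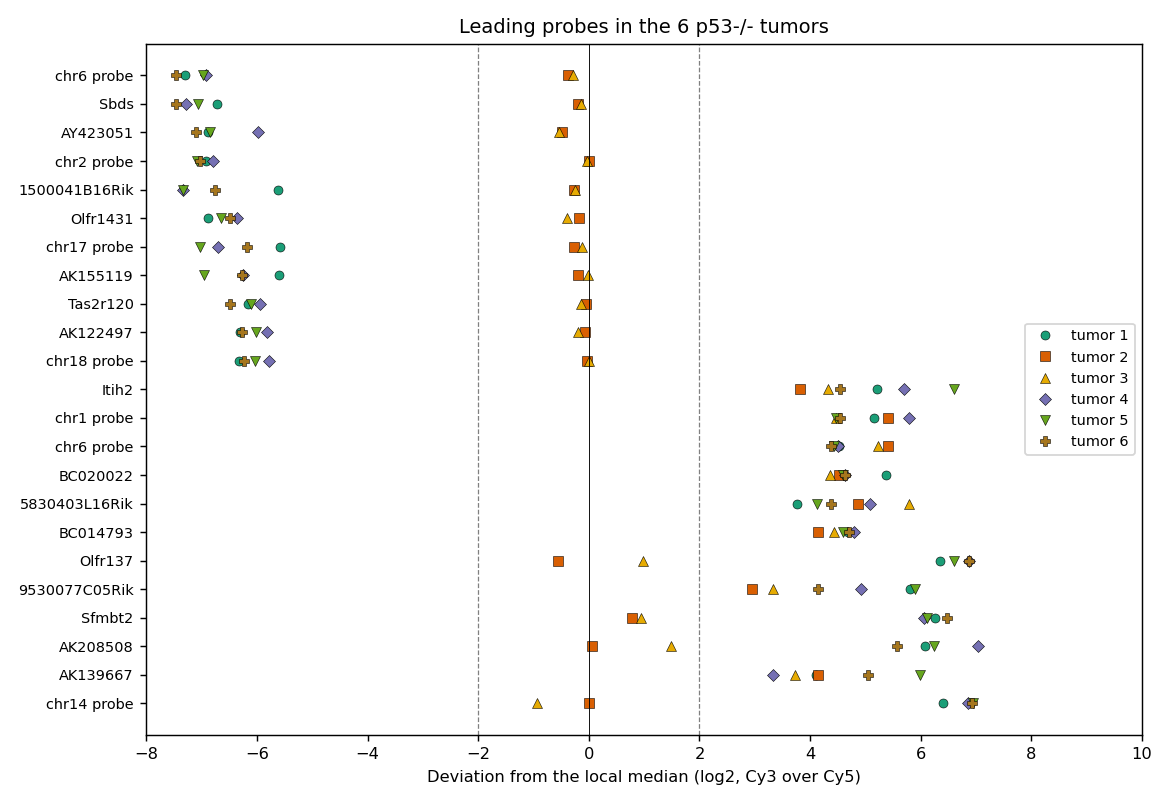
Deviation (log2) of 11 of the 12 lower and all 12 higher probes of largest mean deviation in the 6 p53-/- tumors. Lower probes lie near 0 in tumors 2 and 3 and between -7.47 and -5.58 in the others; 8 of the higher probes are high in all 6.

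Most members had no member beside them, although members adjoined each other more often than the overall share. No adjacent probe was a member at 525 of the 565. Of the 1130 neighbouring probes 42 were members (3.72%), against 1.39% of all autosomal probes, and the median distance to a neighbouring probe was 23767 bases. Over the tumors in which a member deviated, the median size of the mean deviation was 2.91 for members and 0.17 for the 1088 neighbouring probes that were not members, 84.7% of which were under 0.5. Within a wider span, 297 members (52.6%) had another within 1 Mb, as had 43.5% of all autosomal probes.

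On the scale of chromosomes the share of probes chosen ran from 0.84% on chromosome 11 to 2.40% on chromosome 19, with 1.91% on chromosome 17. In 37 places, 3 or more members followed each other at distances of at most 1 Mb, and these held 167 members. Clusters are described by their genes below. The rule also met 14 of 1569 probes of chromosome X (0.892%), 8 of them higher, which are not counted among the members.

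The largest cluster covered the histocompatibility region (chromosome 17, 33348581 to 37912746), with 15 members of 234 probes, 11 higher and 4 lower. Tap1, the transporter that carries peptides to class I molecules, had 1.38, 3.58, 3.78, -0.39, 0.76 and 1.02 in tumors 1 to 6, so that tumors 2 and 3 alone passed the threshold. H2-T10, a nonclassical class I gene, had -2.96, -0.46, -0.49, -3.59, -3.80 and -3.03, the reverse choice of tumors. The probe named A130038H09Rik, matched to the class II beta chain H2-Eb2, was higher in all 6, at 2.25, 3.87, 4.12, 3.23, 3.34 and 3.41. Hspa1a, an inducible heat shock protein 70, had 5.08, -1.26, 1.69, 4.92, 4.72 and 4.58. The region thus held members of both signs and of several tumor combinations, interleaved with probes that were not chosen.

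Lower in tumors 4, 5 and 6 alone in that region were Dom3z, matched to the RNA decapping gene Dxo, with -0.36, -0.31, 0.04, -3.19, -2.73 and -2.68, and the zinc finger gene Zbtb12, with 0.21, -0.18, -0.03, -2.44, -3.22 and -2.44. H2-Ke6, which lies in the region but encodes a steroid dehydrogenase, had 0.61, 2.39, 2.45, -0.26, 0.29 and 0.36. The other members were M73959, AY940477, AY989850, the odorant receptors Olfr113 and Olfr137 and 3 probes named by position.

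On chromosome 19 (8588964 to 13937940), 10 of 255 probes were members. The Ms4a genes encode membrane proteins of leukocytes, and a pair of them was divided between the tumors: Ms4a4d was higher in tumors 2 and 3 alone (2.60 and 2.78, against -0.25 to 0.43 in the others), and Ms4a4b was higher in tumors 1, 4, 5 and 6 alone, with its Cy5 signal not well above background. The odorant receptor Olfr1469 had 4.17, 0.49, 0, 4.29, 4.69 and 4.29. The probe named 4632417K18Rik, matched to Fam111a, a protease gene, had -6.19, 0.12, 0, -5.66, -5.97 and -5.54. Other members here were Olfr1431, AF408394, AK048878, AK145833, AK005010 and BC106809.

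Other clusters held receptor genes. Of 8 probes between 132622658 and 132768848 on chromosome 6, 3 were members, all lower in tumors 1, 4, 5 and 6, in the bitter taste receptors Tas2r120, Tas2r115 and Tas2r117. Tas2r115 had -2.93, -0.34, -0.19, -2.33, -2.92 and -2.17. Near the natural killer gene complex of the same chromosome (127920921 to 130254770), 6 of 92 probes were members. A pair of probes there carried the same name, Klra22, matched to the Ly49 receptor gene Klra1. One had -5.63, 0.16, 0.11, -4.83, -6.28 and -5.24, and the other had 2.07, 0.98, 0.81, 2.16, 2.32 and 1.87. The genes of this family are near copies of each other, and which copy each probe read is uncertain.

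Clec2e, a C-type lectin gene of that complex, was higher with 3.79, -1.14, 0.23, 4.08, 4.42 and 3.75. On chromosome 16 (44755903 to 45171499), 3 of 15 probes were members and all were higher in tumors 1, 4, 5 and 6. They lay in Cd200r4 and Cd200r2, receptors of the CD200 family on myeloid cells, and in Btla, an inhibitory receptor of lymphocytes. Btla had 2.46, -0.13, 0.67, 3.31, 2.22 and 2.63. On chromosome 7 (47256974 to 48315862), 5 of 16 probes were members, 3 higher and 2 lower, all in the same 4 tumors. The named one was Mrgprb1, a receptor of the Mas-related family, with 4.71, 0.54, 0.40, 5.59, 5.80 and 4.87.

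Clusters without such families were also seen. On chromosome 9 (66514173 to 66952972), 5 of 20 probes were members in 3 combinations. Car12, a carbonic anhydrase, was higher in all 6 tumors at 5.01, 3.72, 3.68, 3.70, 4.22 and 4.19. Aph1b, a subunit of gamma-secretase, had 3.85, 0.24, 1.06, 4.06, 4.45 and 3.75, and Tpm1, a tropomyosin, had 3.90, -1.33, 0, 4.31, 5.31 and 3.99. Rps27l, a gene related to a ribosomal protein, had 0.64, 3.40, 3.76, 2.02, 1.01 and 2.27. Tumors 1 and 5 were therefore the low ones for Rps27l, and tumors 2 and 3 for Aph1b and Tpm1.

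On chromosome 4, Atp13a2, a lysosomal transporter, was higher in all 6 tumors at 3.13, 2.95, 2.70, 3.25, 3.55 and 3.01. Organic anion transporters gave a cluster on chromosome 6 (141466388 to 141804471): Slco1c1 had 2.62, -1.003, -1.22, 2.005, 2.62 and 1.77, and Slco1a4 had 2.11, -1.02, -1.27, 1.64, 2.09 and 1.52.

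Probes of the same transcript did not always move one way. The 3 members named AK155119 on chromosome 11 were all lower in tumors 1, 4, 5 and 6, but a pair of them overlapped (116570620 to 116570668 and 116570642 to 116570701) and share sequence. At 3 probes of AK139781 on chromosome 14, within 0.0882 Mb (50679159 to 50767364), tumor 1 had -4.56, -2.54 and 4.10 in that order. The chromosome 1 members BC042698, BC013664 and EG214403 (140814799 to 141574370) were all higher in tumors 1, 4, 5 and 6, from 2.79 to 4.95.

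By gene families fixed as lists, members were few. Of 22 probes whose gene symbol begins as those of the mouse histocompatibility (H2) genes, 3 were members (13.6%), the probes of H2-T10, H2-Eb2 and H2-Ke6, of which the last is not a class I or II gene. Of 48 probes of natural killer and lectin receptors 3 were members (6.25%), against 1.39% of all autosomal probes. The 758 probes of chemosensory receptors held 8 (1.06%), 2 higher and 6 lower. Of the latter, Olfr1125 (matched to Olfr1124) had -5.50, -0.59, -0.52, -5.81, -5.60 and -5.53. Among 437 probes of zinc finger genes there were 5 members (1.14%). One of these, Zfp672, showed the combination of tumors 2, 3, 4 and 6, with 0.42, 3.80, 4.45, 4.24, 0.63 and 4.05.

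A single member fell in each of 3 further lists, of 78, 114 and 121 probes (1.28%, 0.877% and 0.826%, against 1.39% of all autosomal probes). The first was Oasl2, an interferon-inducible gene of the oligoadenylate synthetase family, lower in tumors 1 and 5. The others were Cyp4f16, a cytochrome P450, and Tessp2, matched to the serine protease gene Prss42, both higher in tumors 2 and 3. The other lists with probes on the array held 0 members, and with 3 to 34 probes each they are too small to be read against 1.39%. These were antigen receptor loci, defensins, NLR genes, pheromone carriers, eosinophil ribonucleases, carcinoembryonic glycoproteins, paired Ig-like receptors, Skint, butyrophilin and Ly6 genes, retroviral genes, genes in copy number variants known between inbred strains (21 probes) and the genes targeted in the models (9 probes). The lists describe the members by counts and no test was made.

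Probes named by position alone, which lie where the array's design gave no gene, made up 17.5% of members and 14.5% of all autosomal probes. In the sets of tumors 1, 4, 5 and 6 they were 25.3% of higher and 25.8% of lower members. In the set lower in tumors 4, 5 and 6 they were 3.51%. That set also differed in the length of its probes: 38 of 57 (66.7%) were shorter than 60 bases, with a median of 55, whereas 20.7% of all autosomal probes and 11.3% of the lower probes of tumors 1, 4, 5 and 6 were. Agilent trims its probes toward a common melting temperature, and base composition was not analysed here.

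At the edge of the rule, the probes just inside were 2810408M09Rik and AK086943, with a second-largest deviation of -2.01 each, and C230078M14Rik and 2 probes named by position, with 2.003 to 2.005. Just outside were Zfp423 with -1.9998, Gng13 with 1.995 and Samd8, AK014711 and Ebpl with 1.99 each. Zfp423 had -1.96, 0, -0.06, -1.67, -2.45 and -1.9998, low in the same 4 tumors as the large lower set.

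The other 39 arrays did not take part in the choice, and in them the members were tested. Limma was fitted to the deviation of all 40666 autosomal probes, with the mean of each model set against 0. A single fit over the 7 models gave each probe 1 shared estimate of its spread, moderated across probes. A call needed a Benjamini-Hochberg adjusted p under 0.05 and a mean deviation of 1 or more, up or down. In at least 1 of the 7 models 232 members were called (41.1%), compared with 1.49% of all autosomal probes. Of these, 216 were called in a single model and 16 in 2. At 207 members (36.6%), no other array passed the threshold of 2 in the same direction.

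**Figure D4:**
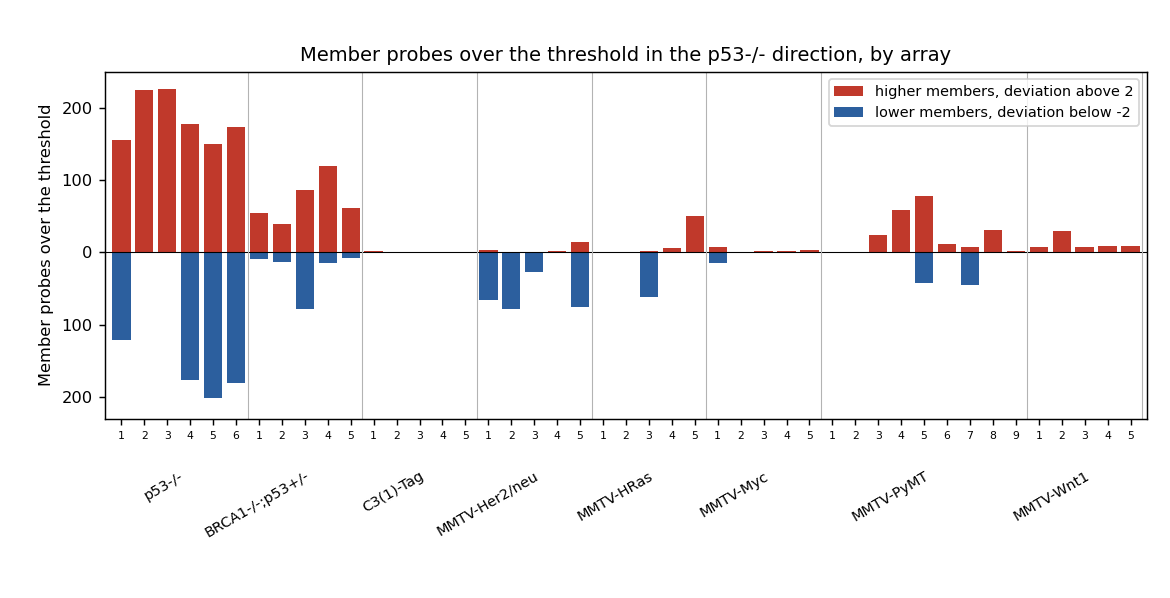
Number of the 565 members in each of the 45 arrays that passed a deviation of 2 in the p53-/- direction, with higher members drawn upward and lower members downward. The p53-/- arrays, which chose the probes, hold 225 to 355; the next highest are BRCA1-/-;p53+/- 3 with 165, BRCA1-/-;p53+/- 4 with 134 and MMTV-PyMT 5 with 120.

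On the processed signal, BRCA1-/-;p53+/- tumors had the most called members of the 7 models. Between 53 and 165 members passed the threshold in the same direction in each of its 5 arrays, and limma called 107, while 0.925% of all probes were called. The mean was above 0 at 83 of them (0.556% of all probes) and below 0 at 24 (0.369%), and 103 had the same sign as in the p53-/- tumors. Aph1b had deviations of 3.65, 3.69, 4.62, 6.25 and 6.08 in arrays 1 to 5, a mean of 4.86 with an SE of 0.357 (limma, adjusted p = 4.58e-12). Limk1 (chromosome 5, 134969542 to 134969600), a kinase that acts on cofilin, had 3.86, 2.90, 5.39, 5.20 and 5.46, a mean of 4.56 with an SE of 0.263 (limma, adjusted p = 3.46e-15). All 5 arrays were high at both probes, and none of the 34 arrays of the remaining models reached 1 at either. With the local background subtracted 60 members were called in this model and 108 in MMTV-Her2/neu, of 161 and 188 called among all probes. With normexp the counts were 10 and 23, of 24 and 39, so that the order of these models turned.

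Named after its values were seen, Blnk (chromosome 19, 40994434 to 40994493), the B cell linker adaptor, was lower in both models. In tumors 1 to 6 of p53-/- it had -5.39, -0.23, -0.20, -5.53, -5.46 and -4.97. In the 5 BRCA1-/-;p53+/- arrays it had -4.24, -4.04, -4.98, -5.07 and -4.33, a mean of -4.53 with an SE of 0.244 (limma, adjusted p = 5.81e-16). Neither p53-/- tumors 2 and 3 nor any array of the other 6 models was under -1 at this probe. At 4 members the BRCA1-/-;p53+/- mean had the opposite sign: the 3 probes of AK155119, lower in p53-/- tumors, were higher at 1.37, 1.41 and 1.49, and Apba1, an adaptor that binds the amyloid precursor protein, at 2.37. Sbds was called in no other model, and all 39 other arrays lay between -0.19 and 0.57.

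By tumor combination, 15 of the 22 members higher in all 6 p53-/- tumors were called in BRCA1-/-;p53+/- arrays, as were 42 of the 95 higher and 22 of the 97 lower members of tumors 1, 4, 5 and 6, 18 of the latter with the same sign. Of the 149 members of tumors 2 and 3, 9 were called there. Car12, higher in all 6 p53-/- tumors, had a mean of 4.39 with an SE of 0.502 in BRCA1-/-;p53+/- (limma, adjusted p = 1.24e-07), and BC020022 had 3.90 with an SE of 0.333 (limma, adjusted p = 1.97e-10). Olfr137 had -1.27, 3.60, 6.39, 5.97 and 6.24 in the 5 arrays, so that array 1 stood on the other side.

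In MMTV-Her2/neu the called members were all lower. Limma called 80, each lower in both models, against 0.381% of all probes in either direction and 0.374% downward, and 55 of them belonged to the 57 members lower in tumors 4, 5 and 6 of p53-/-. Higher members passed the threshold upward in some arrays, 4 in array 1, 2 in array 4 and 15 in array 5, without a call. In arrays 1 to 5 of MMTV-Her2/neu, 50, 55, 23, 0 and 55 of the 57 were under -2. Barhl1 (chromosome 2, 28738024 to 28738083), a homeobox gene of neurons and inner ear, had 0.25, -0.05, -0.05, -4.35, -3.19 and -3.09 in the p53-/- tumors. Its deviations in MMTV-Her2/neu were -3.24, -3.83, -2.26, -0.32 and -3.94, a mean of -2.72 with an SE of 0.448 (limma, adjusted p = 0.00109). AK019121 (chromosome 19, 23202109 to 23202158) had -3.31, -4.57, -3.25, -0.93 and -3.44, a mean of -3.10 with an SE of 0.531 (limma, adjusted p = 0.00145). Array 4 was the highest at both probes. It shared its scan date with C3(1)-Tag 3, 4 and 5 and MMTV-HRas 1 and no other array. These arrays alone carry the mark RPT in the authors' intervals, and whether this bears on the difference was not tested.

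The same 57 probes moved together in single arrays of other models. Under -2 were 48 in BRCA1-/-;p53+/- 3, 48 in MMTV-HRas 3, 37 each in MMTV-PyMT 5 and MMTV-PyMT 7 and 13 in MMTV-Myc 1. In these models few or no members of the set were called, with 0 in BRCA1-/-;p53+/- and MMTV-HRas and 2 in MMTV-PyMT. The arrays with nearly the same copy number profile were divided at these probes: MMTV-Her2/neu 2 and 3 had 55 and 23 under -2, and C3(1)-Tag 3 and 4 had 0 and 0. Across all autosomal probes the deviations of C3(1)-Tag 3 and MMTV-Her2/neu 2 had r = 0.13, and those of C3(1)-Tag 4 and MMTV-Her2/neu 3 had r = 0.00. The 5 doubted arrays were C3(1)-Tag 3 and 4, MMTV-Her2/neu 2 and 3, and MMTV-Wnt1 1. Without them 1 member was called in MMTV-Her2/neu, of 2 called among all probes, where 3 arrays were left. At Barhl1 these had -3.24, -0.32 and -3.94. Leaving out array 2 or array 5 alone gave 47 or 52 members, of 53 or 90 called among all probes.

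**Figure D5:**
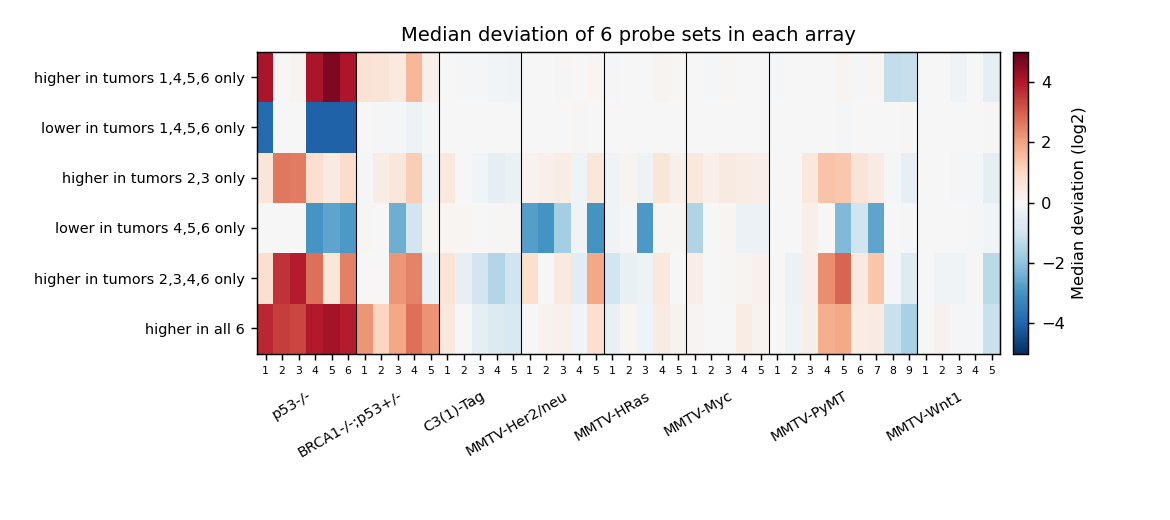
Median deviation (log2, colour scale) of the members of 6 main sets (rows) in each of the 45 arrays (columns, by model). The set lower in p53-/- tumors 4, 5 and 6 also has a median between -2.995 and -2.21 in MMTV-Her2/neu 1, 2 and 5, MMTV-HRas 3, MMTV-PyMT 5 and 7 and BRCA1-/-;p53+/- 3, of -1.72 in MMTV-Her2/neu 3 and of -1.50 in MMTV-Myc 1.

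In MMTV-PyMT 44 members were called, 32 with the same sign and 12 opposite, against 0.13% of all probes. The 149 members of tumors 2 and 3 held 19 of these, all with the same sign. The 27 members of tumors 2, 3, 4 and 6 were over 2 in 27 of 27 in MMTV-PyMT 5, in 18 in MMTV-PyMT 4, in 19 and 17 in BRCA1-/-;p53+/- 4 and 3 and in 12 in MMTV-Her2/neu 5. The opposite calls came with the slide that held MMTV-PyMT 8, MMTV-PyMT 9 and MMTV-Wnt1 5. Of the 95 higher members of tumors 1, 4, 5 and 6, 35, 32 and 23 were under -2 in these arrays, where the median Cy5 shift of the set was 2.91, 2.87 and 2.84, against -0.85 to 1.095 in all other arrays. Without that slide 42 members were called in MMTV-PyMT, all with the same sign, of 50 called among all probes. Without MMTV-PyMT 8 alone the count was 24 of 29, with the local background subtracted 29 of 42, and with normexp 0. The arrays of that slide and MMTV-Wnt1 2, 3 and 4 were extracted with other settings of background subtraction and dye normalization than all other arrays. Whether slide or settings bear on the opposite calls was not tested.

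Mobkl2b (chromosome 4, 35342545 to 35342604), matched to the kinase activator gene Mob3b, was among the members with an opposite call. In the p53-/- tumors it had 5.78, 0.01, -0.20, 5.74, 6.30 and 5.88. In the 9 MMTV-PyMT arrays the lowest value was -7.00, the median 0.01 and the highest 0.12, and the mean of -1.86 with an SE of 0.604 was called (limma, adjusted p = 0.0313). Arrays 8 and 9 had -6.91 and -7.00, and MMTV-Wnt1 5, on the same slide, had -7.28. The other called PyMT probe of this rank, AK039950, higher in the p53-/- tumors, had a mean of -1.78 with an SE of 0.428 (limma, adjusted p = 0.00464) and was negative in 7 of 9 arrays.

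The remaining models had few called members on the processed signal. Limma called 12 in MMTV-Wnt1, all higher in both models, against 0.059% of all probes in either direction and 0.0541% upward. They included 1110028C15Rik with a mean of 2.47 and an SE of 0.503, higher in 3 of 5 arrays (limma, adjusted p = 0.00381), and AK139667 with 1.95 and an SE of 0.466, higher in 4 of 5 (limma, adjusted p = 0.0115). Leaving out array 2, 3 or 4 gave 4, 4 or 3 calls in MMTV-Wnt1, of 10, 13 or 8 among all probes. The slide as a random block gave 1 of 5. With dim spots left out 7 were called, 5 with the same sign and 2 opposite, of 20 called among all probes. Arrays 2 to 5 of MMTV-Wnt1 had the extraction settings of MMTV-PyMT 8 and 9, and whether this bears on the calls was not tested. In MMTV-Myc there were 4 calls, against 0.027% of all probes, and 0 with the slide as a block or without array 1, 2, 3 or 4. With the local background subtracted the count in MMTV-Myc was 46, of 92 called among all probes. Stfa2l1, a stefin-like protease inhibitor gene, had a mean of 1.57 with an SE of 0.394 there, higher in 5 of 5 arrays (limma, adjusted p = 0.0316). A probe on chromosome 5 (64731474 to 64731533) had 1.57 with an SE of 0.421, also higher in 5 of 5 (limma, adjusted p = 0.0463).

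In C3(1)-Tag limma called 1 member, AK200124, against 0.00984% of all probes. It was higher in p53-/- tumors and had a mean of -1.13 with an SE of 0.166 in C3(1)-Tag (limma, adjusted p = 0.000806). At an unadjusted p under 0.05 the count was 40, against 9.84% of all probes, and with the slide as a random block or without array 5 no member was called. In MMTV-HRas limma called 0 members, against 0.0172% of all probes, and 57 had an unadjusted p under 0.05, against 12.6% of all probes. These counts, 40 and 57 of 565, are no larger a share than among all probes. Without array 1 of that model 5 were called, of 33 among all probes, without array 3 it was 2 of 4, and without array 4 it was 1 of 15. With the local background subtracted it was 59 of 221. No more than 2 members passed the threshold in the same direction in any C3(1)-Tag array, compared with 1 to 64 in the MMTV-HRas arrays.

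Members also varied among the 7 models. A moderated F-test called 81 of 565 (14.3%), 55 higher and 26 lower, at an adjusted p under 0.05 and a range of model means of at least 1, against 1.03% of all probes. The higher set of tumors 1, 4, 5 and 6 gave 36 of its 95 probes, and the set lower in tumors 4, 5 and 6 gave 2 of 57. With the slide as a random block 34 members were called by this test, of 119 among all probes. Without MMTV-Her2/neu 4 it called 124 of 507, with normexp 12 of 52, and with the local background subtracted 26 of 146.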

How the data were processed

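Agilent Feature Extraction output was deposited for each array, version 9.5.1.1 by the file headers and 10.7 by the submitters' processing notes. The authors' software gave each spot a mean and a processed fluorescence intensity, background-subtracted and dye-normalized, and the deposited log10 ratio of Cy5 over Cy3. Its settings of background subtraction and dye normalization were of 2 kinds. MMTV-PyMT 8 and 9 and MMTV-Wnt1 2 to 5, 6 arrays, had the first kind and all others the second. The authors also deposited intervals from ADM-2 aberration detection with mean log2 ratios. Their tables of single models were not used.

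Ratios were turned to log2 of Cy3 over Cy5 and centred on the autosomal median. Control and outlier spots were left out and spots of a probe averaged. Coordinates are those of the design (mm8). The p53-/- arrays were not tested. The 39 other arrays were fitted with limma 3.58.1 in R 4.3.3 on all autosomal probes, with Benjamini-Hochberg adjustment, checked on simulated data. Python 3.11.15, numpy 2.4.6 and pandas 2.3.3 did the rest. Between 1 and 4 arrays shared a slide. The median signal was 3.67 to 16.7 times background in Cy3 and 2.09 to 14.4 times in Cy5, and the number of arrays limits the precision.

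Members and gene lists were chosen with earlier results of these data known. Named were the 12 probes of largest mean deviation in each direction, members of clusters and lists, the 5 on either side of the threshold, the 2 of largest mean called in each other model, and Trp53 and Brca1; a few of these are not reported here. Of 449 names, 325 matched a RefSeq symbol. Alternatives changed the window, threshold, arrays needed, background correction, spot filters, dye direction, slide and arrays.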

Additional observations from a re-analysis of the deposited data

Results flagged for a closer look

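In a few arrays the number of members over the threshold lay far from the rest of the model. These were MMTV-Myc 1 with 22 in the same direction as in the p53-/- tumors, MMTV-PyMT 5 with 120, MMTV-Wnt1 2 with 30, and MMTV-Wnt1 5 with 51 in the opposite direction. At BC020022 the deviation of 5.38 in p53-/- tumor 1 lay apart from the other 5 tumors. Of 44 sets of arrays examined for such a value 5 had one, and chance gives about 1 in 20.

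The moderated F-test found 81 members to differ among the 7 other models. On chromosome X, which the rule leaves out, 14 probes met the same conditions in the p53-/- arrays.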

How the results depend on the processing

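No paired analysis was possible because the replicate numbers follow accession order and pair no arrays. Slides that held arrays of several models entered as a random block (consensus correlation 0.32). Of 175 alternative counts, 127 lay within 1.5 times the reported count and 48 did not. The members themselves changed most with the background correction and the threshold: 22 with normexp (11 of them among the 565), 338 with the local background subtracted (325 among the 565), 1043 at a threshold of 1.5, 259 at 3 and 350 when 3 of 6 arrays were needed. Without tumor 2 or tumor 3 the higher probes were 205, and with the local background subtracted the lower were 67. Each p53-/- array left out in turn gave 414 to 545 members, and without tumors 2 and 3 there were 395. Alternatives with the local background, without tumors 2 and 3 and without the slide of MMTV-PyMT 8 and 9 were chosen after seeing the data.

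With normexp, at the same size limit of 1, 10 members were called in BRCA1-/-;p53+/- (7 with the same sign, 3 opposite). In MMTV-Her2/neu it was 23 (21 and 2), in MMTV-Myc 1, opposite in sign, and in MMTV-Wnt1 1. It was 0 in C3(1)-Tag and MMTV-PyMT and 12 by the F-test. Among all probes the calls were 24, 39, 11, 2, 0, 0 and 52 in that order. With the local background subtracted they were 60 in BRCA1-/-;p53+/-, 0 in C3(1)-Tag, 108 in MMTV-Her2/neu, 59 in MMTV-HRas, 46 in MMTV-Myc, 29 in MMTV-PyMT, 16 in MMTV-Wnt1 and 26 by the F-test. Among all probes the local background gave 161, 1, 188, 221, 92, 42, 26 and 146 calls in that order. The slide as a random block gave 0 in C3(1)-Tag and MMTV-Myc, 1 in MMTV-Wnt1 and 34 by the F-test. Over all probes these were 1, 4, 5 and 119. Without the 5 doubted arrays 0 were called in C3(1)-Tag and MMTV-Myc and 1 in MMTV-Her2/neu, against 1, 5 and 2 among all probes. Without the slide of MMTV-PyMT 8 and 9 the counts were 4 in C3(1)-Tag, 3 in MMTV-HRas and 7 in MMTV-Myc. Among all probes they were 8, 10 and 15. In MMTV-HRas a window of 21 probes, dim spots left out and no size limit gave 1 each, against 8, 6 and 282 among all probes. No size limit gave 116 in MMTV-PyMT (20.5% of members, against 16.6% of all probes). Dim spots left out gave 7 members in MMTV-Wnt1, 2 of them opposite in sign to the p53-/- tumors, against 20 calls among all probes.

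Leaving out each array of a model in turn gave 93 to 120 in BRCA1-/-;p53+/-, 0 to 1 in C3(1)-Tag, 47 to 81 in MMTV-Her2/neu (47 without array 2 and 52 without array 5), 0 to 5 in MMTV-HRas (5 without array 1), 0 to 4 in MMTV-Myc, 24 to 51 in MMTV-PyMT (24 without array 8) and 3 to 13 in MMTV-Wnt1 (3 without array 4). Among all probes the calls ran from 308 to 477, 1 to 14, 53 to 210, 4 to 33, 3 to 20, 29 to 70 and 8 to 41 in the same order. By the F-test leaving out each array gave 64 to 124 members, the most without MMTV-Her2/neu 4, against 309 to 541 of all probes. The cause of these changes was not tested. Sizes and directions of dim and bright members were not compared.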
